A study of Mus musculus with 13 samples.

Results

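The brain makes, imports and spends creatine through a short chain of proteins, and the genes of that chain were followed across 13 arrays of mouse brain. The genes were Gatm and Gamt for synthesis, Slc6a8 for uptake, and Ckb and Ckmt1 for the kinase step. All probe sets that the platform annotation assigns to 1 of these 5 genes alone were taken, which gave 8 of the 12488 probe sets on the array: 1 each for Gatm and Ckb, and 2 each for Gamt, Slc6a8 and Ckmt1. A probe set is a group of short probes on an Affymetrix MG-U74Av2 array whose signals are combined into 1 value. The samples were whole brain hemispheres in 4 groups: 3 arrays of R6/2 mice under triple treatment, 4 arrays of untreated R6/2 mice, 3 arrays of wild type mice under triple treatment and 3 arrays of untreated wild type mice. R6/2 is a transgenic mouse model of Huntington's disease that carries the first exon of human HTT with an expanded CAG repeat, under the human HTT promoter and on top of the mouse gene. The triple treatment was tacrine at 2.7 mg/kg per day, moclobemide at 10 mg/kg per day and creatine at 1% w/v in wet mash, with tacrine listed from 5 weeks of age. Creatine was thus never given alone, and its part in any treatment difference cannot be told apart from that of the other drugs. The descriptions list the drugs for untreated samples too, so treatment was read from the titles. A harvest age of 8 weeks is given for 1 untreated wild type sample, and no sex, strain background or pooling is given. Nothing says that the arrays came from separate animals, so p-values measure the spread between these samples, which may be technical.

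Creatine is made in 2 steps. Gatm transfers an amidino group of arginine to glycine in mitochondria, and Gamt methylates the product, guanidinoacetate, with S-adenosylmethionine. Slc6a8 is the sodium-dependent transporter that brings creatine into cells and across brain capillaries. Creatine kinases then move phosphate between ATP and creatine: Ckmt1 is the mitochondrial enzyme, next to the site of ATP export, and Ckb is the cytosolic brain enzyme, abundant in neurons, astrocytes and oligodendrocytes. Within the brain, Gamt is best known from glia, with strong expression in oligodendrocytes. Feeding creatine is known to lower Gatm in rat kidney, which gives the treated groups their interest for these genes.

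The start regions of the 3 genes whose probe sets passed a genotype test are shown here, as a reference for what the genes carry and not as evidence of regulation. Each sequence is the 250 bases before an annotated start, from RefSeq on GRCm38.p6. Of the 5 genes, 4 matched the promoter table, Slc6a8 being the other. Capitals mark matches, on either strand, to 3 promoter motifs: the TATA box, searched as TATAAA; the CAAT box, searched as CCAAT; and the GC box, searched as GGGCGG. The matches do not overlap. The region of Ckb is chr12:111672339-111672588 on the minus strand, that of Gamt is chr10:80261013-80261262 on the minus strand, and that of Ckmt1, for the upstream of its 2 listed starts, is chr2:121357526-121357775 on the plus strand.
Ckb: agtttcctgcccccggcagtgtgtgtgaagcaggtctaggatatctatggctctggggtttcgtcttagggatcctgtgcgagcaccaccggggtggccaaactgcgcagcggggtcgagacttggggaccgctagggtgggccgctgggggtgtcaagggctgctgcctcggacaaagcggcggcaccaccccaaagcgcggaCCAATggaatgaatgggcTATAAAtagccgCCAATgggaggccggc
Gamt: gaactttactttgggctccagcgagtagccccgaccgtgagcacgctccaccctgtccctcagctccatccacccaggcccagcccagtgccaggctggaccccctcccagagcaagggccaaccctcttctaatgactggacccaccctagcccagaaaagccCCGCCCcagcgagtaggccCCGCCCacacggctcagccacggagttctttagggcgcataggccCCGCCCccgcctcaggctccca
Ckmt1: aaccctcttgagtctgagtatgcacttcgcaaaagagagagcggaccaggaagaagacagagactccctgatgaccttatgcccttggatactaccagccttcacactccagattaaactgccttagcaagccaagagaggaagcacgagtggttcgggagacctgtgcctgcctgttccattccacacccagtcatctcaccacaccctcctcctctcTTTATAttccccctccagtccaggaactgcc
Ckb holds a TATA box match at positions -28 to -23 from the start and CAAT box matches at -46 to -42 and at -16 to -12. Gamt holds neither, and holds GC box matches on the opposite strand at 3 places. Ckmt1 holds a TATA box match on the opposite strand, at -31 to -26, and Gatm, whose region is not printed, holds the CAAT box at 2 places. Of 32851 promoter regions of this length in the table, 12.4% hold the TATA box, 33.8% the CAAT box and 32.7% the GC box.

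The arrays were uneven in ways that bear on these genes. The deposited signals are linear and scaled, with a 2% trimmed mean of 100.047 to 100.128 and a median of 39.6 to 45.1 per array. Untreated R6/2 arrays 2 and 3 stood apart, with scores of 25.4 and 45.7 on the first principal component (33.9% of the variance), against -14.70 to 4.09 in the other arrays. In untreated R6/2 arrays 2, 3 and 4, each of the 66 control probe sets equals 1.2 times its value in another array (treated R6/2 array 1, treated R6/2 array 3 and untreated R6/2 array 1), within 0.05. The controls of those 3 arrays are therefore no measure of their own RNA, while their gene probe sets matched that rule in 63 to 89 of 12422 rows. The lot number in the description equals the number in the title for 12 of 13 arrays. The exception is treated R6/2 array 1, whose lot number is that of untreated R6/2 array 4. Values without untreated R6/2 arrays 2 and 3 are given beside the log2 differences of member probe sets that use them, and beside part of the other results.

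Of the 8 probe sets, 7 passed the filter on dim signals (a mean of at least 24.9) and entered the test. The test was a limma fit over 7453 probe sets, with p-values adjusted over all of them and a threshold of 0.05 on the adjusted p. The probe set that did not pass, Slc6a8 97748_at, read 1 to 4.9 on all arrays, and 7 of its 13 values lay below the floor of 3.1 that was applied before taking logs. In untreated mice 3 of the 7 probe sets passed for genotype, 1 higher and 2 lower in R6/2, while 11.9% of all probe sets tested passed (5.49% higher and 6.41% lower). In treated mice 0 of 7 passed in the limma fit, against 0.792% of all (0.0805% higher and 0.711% lower). For treatment 0 of 7 passed in R6/2 and 0 of 7 in wild type mice, and the fit called 0% of all probe sets in either comparison. At an unadjusted limma p under 0.05 the counts of member probe sets were 4 of 7 for genotype in untreated mice (30.2% of all), 1 of 7 for genotype in treated mice, 3 of 7 for treatment in R6/2 mice and 1 of 7 for treatment in wild type mice, where the last 3 comparisons had 9.19%, 16.9% and 10.3% of all probe sets. Without untreated R6/2 arrays 2 and 3, 0 of 7 passed in any of these 4 comparisons, against 2.24% and 1.6% of all probe sets for genotype in untreated and treated mice, and 0.0134% and 0.107% for treatment in R6/2 and wild type mice. The median log2 difference over the 7 was -0.31 for genotype in untreated mice and -0.21 in treated mice, where the medians of all probe sets were 0.04 and 0.03. It was -0.04 for treatment in R6/2 mice and 0.27 in wild type mice, where all probe sets had medians of 0.02 and 0.01.

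**Figure D1:**
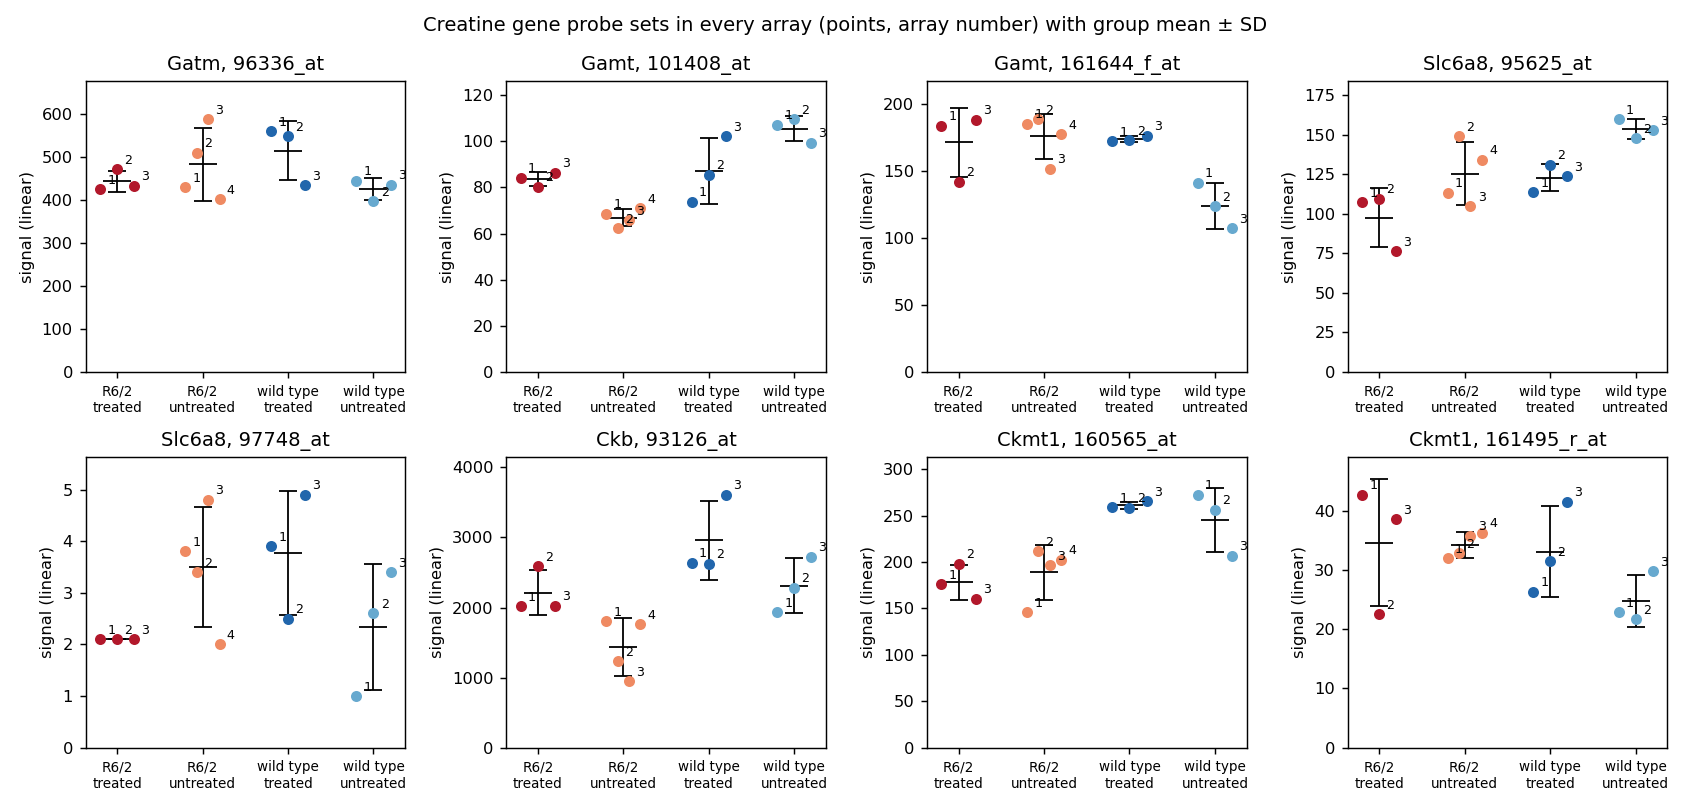
Linear signal (y axis) of the 8 probe sets in every array, by group (x axis); points are arrays with their number, bars are the group mean ± SD (n = 3 per group, 4 in untreated R6/2). Ckb 93126_at reads 952.1 to 1807.7 in untreated R6/2 arrays, below the 1932.7 to 2726.9 of untreated wild type arrays, while Gatm overlaps between all groups.

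Synthesis begins with Gatm, whose signal did not separate any pair of groups. Probe set 96336_at read 425.2, 472.2 and 433.4 in treated R6/2 arrays 1 to 3, and 430.3, 510.9, 588.9 and 401.9 in untreated R6/2 arrays 1 to 4. In wild type mice it read 559.8, 548.9 and 435.4 in treated arrays and 444.8, 397.4 and 436.2 in untreated arrays. The highest Gatm values were those of untreated R6/2 array 3 and treated wild type arrays 1 and 2, and every pair of groups overlapped. The log2 difference of treated over untreated mice was -0.11 ± 0.14 (SE) in R6/2 and 0.27 ± 0.15 (SE) in wild type mice (limma adjusted p = 0.702 and 0.553). The 95% intervals ran from -0.40 to 0.19 in R6/2 and from -0.05 to 0.58 in wild type mice. They describe the difference under all drugs together, and an effect of creatine on Gatm was not tested. The genotype difference was 0.17 ± 0.14 (SE) in untreated mice and -0.21 ± 0.15 (SE) in treated mice (adjusted p = 0.442 and 0.802). Without untreated R6/2 arrays 2 and 3 the sign turned, to -0.03 for genotype in untreated mice and to 0.09 for treatment in R6/2 mice.

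Gamt, the second enzyme of synthesis, was read by 2 probe sets that disagreed. Probe set 101408_at read 84.3, 80.4 and 86.4 in treated R6/2 arrays and 68.6, 62.4, 65.8 and 71.1 in untreated R6/2 arrays. It read 73.9, 85.6 and 102.3 in treated wild type arrays and 107.3, 109.7 and 99.4 in untreated wild type arrays. Untreated R6/2 arrays were thus the lowest group and untreated wild type arrays the highest by mean, with no overlap between them, and treated arrays of either genotype lay between, with 1 treated wild type array inside the untreated wild type range. In untreated mice 101408_at fell in R6/2, by 0.66 ± 0.13 (SE) on the log2 scale (limma adjusted p = 0.0107), to 67 ± 3.74 in R6/2 mice (SD, n = 4), against 105 ± 5.39 in wild type mice (SD, n = 3). Without untreated R6/2 arrays 2 and 3 the difference was -0.59 (adjusted p = 0.0678), and without untreated wild type array 2 it was -0.63 (adjusted p = 0.0545). In treated mice the genotype difference was -0.05 ± 0.14 (SE, adjusted p = 0.978).

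The other probe set, 161644_f_at, went the opposite way in untreated mice. The suffix _f marks a probe set whose probes can match several similar sequences, so its signal may not come from Gamt alone. It read 183.6, 141.9 and 188 in treated R6/2 arrays, 185.1, 188.6, 151.6 and 177.4 in untreated R6/2 arrays, 172, 172.7 and 176.1 in treated wild type arrays, and 141, 123.5 and 107 in wild type arrays without treatment. Untreated wild type arrays alone were low, and the other 3 groups overlapped. In untreated mice it rose in R6/2, by 0.51 ± 0.14 (SE) on the log2 scale (limma adjusted p = 0.0317). Leaving out untreated wild type array 2, untreated wild type array 3 or untreated R6/2 array 2 gave 0.51, 0.41 and 0.47 (adjusted p = 0.0968, 0.139 and 0.0813), and leaving out untreated R6/2 arrays 2 and 3 gave 0.56 (adjusted p = 0.0741). With the groups compared fitted alone the adjusted p was 0.0764. A direction for Gamt as a gene is therefore not given by these arrays.

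**Figure D2:**
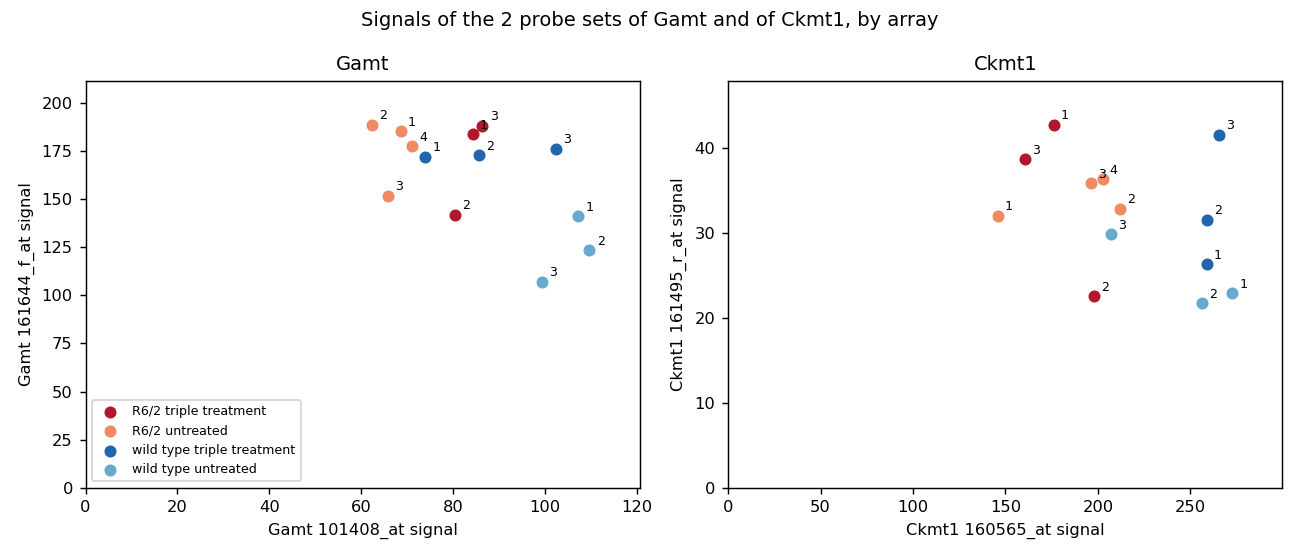
Linear signals of the 2 probe sets of Gamt (left: 101408_at on the x axis, 161644_f_at on the y axis) and of Ckmt1 (right: 160565_at and 161495_r_at) in each of the 13 arrays, numbered within their group. For Gamt, untreated wild type arrays sit at the lower right (99.4 to 109.7 and 107 to 141) and untreated R6/2 arrays at the upper left (62.4 to 71.1 and 151.6 to 188.6).

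Under treatment the Gamt probe sets again parted by genotype. On 101408_at, treated arrays lay above untreated ones in R6/2 mice without overlap, a log2 difference of 0.32 ± 0.13 (SE, limma adjusted p = 0.263; 0.26 without untreated R6/2 arrays 2 and 3), while in wild type mice it was -0.28 ± 0.14 (SE, adjusted p = 0.495). The difference between these treatment effects was 0.61 ± 0.19 (SE), with an unadjusted p of 0.00689 and an adjusted p of 0.309, and 0.55 without those 2 arrays. On 161644_f_at, treated arrays lay above untreated ones in wild type mice without overlap (0.50 ± 0.15, SE, adjusted p = 0.318), and in R6/2 mice the difference was -0.04 ± 0.14 (SE, adjusted p = 0.895). The difference between the treatment effects there was -0.54 ± 0.20 (SE, adjusted p = 0.316). Leaving out those 2 arrays gave -0.09 and -0.59. No interaction passed on any probe set of the array in this fit (0%), and 13.5% had an unadjusted p under 0.05.

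Slc6a8, which carries creatine into brain cells, had its lowest group mean in treated R6/2 mice and its highest in untreated wild type mice. Probe set 95625_at read 107.2, 109.5 and 76.2 in treated R6/2 arrays and 113.3, 148.9, 104.7 and 134.3 in untreated R6/2 arrays. It read 113.8, 130.9 and 123.9 in treated wild type arrays and 159.9, 147.7 and 152.8 in untreated wild type arrays. Group means were 97.6 ± 18.6 in treated R6/2 (SD, n = 3), 125 ± 20.1 in untreated R6/2 (SD, n = 4), 123 ± 8.6 in treated wild type (SD, n = 3) and 153 ± 6.13 in untreated wild type mice (SD, n = 3). Treated and untreated arrays did not overlap in wild type mice, and in R6/2 mice they overlapped through treated arrays 1 and 2 and untreated array 3. The 2 groups in the middle of this order, untreated R6/2 and treated wild type, overlapped.

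No Slc6a8 difference passed the test. The log2 difference of treated over untreated mice was -0.37 ± 0.16 (SE, limma adjusted p = 0.272) in R6/2 and -0.32 ± 0.17 (SE, adjusted p = 0.520) in wild type mice. Averaged over the genotypes it was -0.34 ± 0.11 (SE), with an unadjusted p of 0.00894 and an adjusted p of 0.294, in a comparison in which 0% of all probe sets passed and 12.6% had an unadjusted p under 0.05. The genotype difference was -0.31 ± 0.16 (SE, adjusted p = 0.200) in untreated and -0.35 ± 0.17 (SE, adjusted p = 0.563) in treated mice, and treated R6/2 arrays lay below treated wild type arrays without overlap. The treatment difference in R6/2 mice without untreated R6/2 arrays 2 and 3 was -0.36, its average over genotypes was -0.34, and the genotype difference in untreated mice was -0.31. The dim probe set 97748_at read 2.1 in all 3 treated R6/2 arrays, 2 to 4.8 in untreated R6/2 arrays, 2.5 to 4.9 in wild type arrays with treatment and 1 to 3.4 in those without, at or near the floor throughout.

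Ckb, the cytosolic kinase, read 952.1 to 3609.6 over the 13 arrays, and its coefficient of variation was 29% in untreated R6/2 arrays, against 14.7% to 19.1% in the other groups. Probe set 93126_at read 2022.8, 2587.6 and 2027.2 in treated R6/2 arrays and 1807.7, 1231.3, 952.1 and 1764 in untreated R6/2 arrays. It read 2640.9, 2622.8 and 3609.6 in treated wild type arrays and 1932.7, 2282.1 and 2726.9 in untreated wild type arrays. All 4 untreated R6/2 arrays lay below every other array, and untreated R6/2 arrays 2 and 3, the arrays that stand apart, were the lowest. Treated R6/2 arrays lay within the range of untreated wild type arrays and below every treated wild type array. Group means were 2213 ± 325 in treated R6/2 (SD, n = 3), 1439 ± 417 in untreated R6/2 (SD, n = 4), 2958 ± 565 in treated wild type (SD, n = 3) and 2314 ± 398 in untreated wild type mice (SD, n = 3).

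In untreated mice Ckb fell in R6/2, by 0.72 ± 0.21 (SE) on the log2 scale (limma adjusted p = 0.0401), which is a ratio of R6/2 to wild type of 0.607. This call was close to the threshold. It was -0.36 without untreated R6/2 arrays 2 and 3 (adjusted p = 0.281), in a comparison in which 2.24% of probe sets then passed. It did not pass either without untreated wild type array 1, 2 or 3 (-0.84, -0.72 and -0.59, adjusted p = 0.0545, 0.111 and 0.156) or without untreated R6/2 array 2 or 3 (-0.66 and -0.54, adjusted p = 0.0991 and 0.0867). Leaving out treated R6/2 array 1, treated R6/2 array 3 or treated wild type array 2, which leaves the difference itself unchanged, gave an adjusted p of 0.0519, 0.0534 and 0.0509. The same difference did not pass without the filter on dim probe sets, without the variance trend or with the groups compared fitted alone (adjusted p = 0.107, 0.0579 and 0.0945), and the call was lost in 13 of 23 alternatives. In treated mice the difference was -0.41 ± 0.22 (SE, adjusted p = 0.648), without overlap between the genotypes.

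The treated groups had higher Ckb means than the untreated groups of the same genotype, and neither difference passed. The log2 difference was 0.66 ± 0.21 (SE, limma adjusted p = 0.247) in R6/2 mice, where treated and untreated arrays did not overlap, and 0.35 ± 0.22 (SE, adjusted p = 0.608) in wild type mice, where they did. Without untreated R6/2 arrays 2 and 3 the difference in R6/2 mice was 0.30, and the 2 treatment differences then differed by -0.05. Averaged over genotypes the treatment difference was 0.51 ± 0.15 (SE), with an unadjusted p of 0.00486 and an adjusted p of 0.262, and 0.33 without untreated R6/2 arrays 2 and 3 (adjusted p = 0.468).

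**Figure D3:**
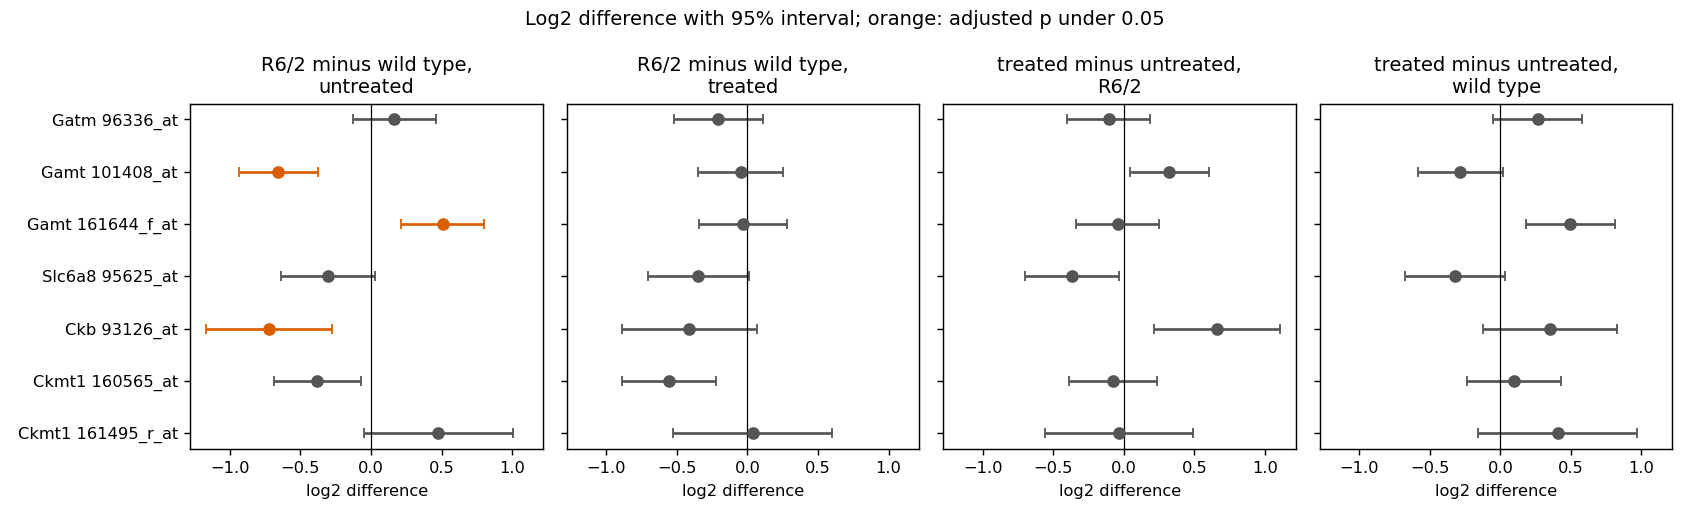
Log2 difference (x axis) with its 95% interval for the 7 tested probe sets (rows) in the 4 comparisons of pairs of groups; orange marks an adjusted p under 0.05. Orange points appear in the panel of untreated mice alone, for Gamt 101408_at (-0.66), Gamt 161644_f_at (0.51) and Ckb 93126_at (-0.72).

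Ckmt1, the mitochondrial kinase, had lower means in R6/2 mice than in wild type mice on its brighter probe set, with or without treatment. Probe set 160565_at read 176, 198 and 160.5 in treated R6/2 arrays and 145.8, 211.9, 196.4 and 202.5 in untreated R6/2 arrays. It read 258.8, 258.7 and 265.4 in treated wild type arrays and 272.5, 256.4 and 207 in untreated wild type arrays. Every treated R6/2 array lay below every treated wild type array, and in untreated mice the ranges overlapped through wild type array 3 and R6/2 array 2. The genotype difference was -0.56 ± 0.16 (SE) in treated mice (limma adjusted p = 0.150) and -0.38 ± 0.15 (SE) in untreated mice (adjusted p = 0.0955), and neither passed singly. Leaving out untreated R6/2 arrays 2 and 3 gave -0.50 in untreated mice (adjusted p = 0.118). The treatment difference was -0.08 ± 0.15 (SE, adjusted p = 0.810; 0.05 without those 2 arrays) in R6/2 and 0.10 ± 0.16 (SE, adjusted p = 0.870) in wild type mice.

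The dimmer Ckmt1 probe set, 161495_r_at, did not follow it. The suffix _r marks a probe set for which some design rules were dropped. It read 42.7, 22.5 and 38.6 in treated R6/2 arrays, 32, 32.8, 35.8 and 36.3 in untreated R6/2 arrays, 26.3, 31.5 and 41.5 in treated wild type arrays, and 22.9, 21.7 and 29.8 in untreated wild type arrays. Untreated R6/2 arrays lay above untreated wild type arrays without overlap, at 0.48 ± 0.25 (SE, limma adjusted p = 0.206; 0.47 without untreated R6/2 arrays 2 and 3), and in treated mice the difference was 0.04 ± 0.26 (SE, adjusted p = 0.992).

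Averaged over treated and untreated mice, 3 of the 7 probe sets were lower in R6/2 and 0 higher, where 6.61% of all probe sets passed (4.04% lower and 2.58% higher). At an unadjusted p under 0.05 the count was 5 of 7, and 24% of all probe sets. Ckmt1 160565_at fell by 0.47 ± 0.11 (SE) on the log2 scale (limma adjusted p = 0.0176), Ckb 93126_at by 0.57 ± 0.15 (SE, adjusted p = 0.0393) and Gamt 101408_at by 0.35 ± 0.10 (SE, adjusted p = 0.0420). Leaving out untreated R6/2 arrays 2 and 3, with which 5.69% of all probe sets passed, put Ckmt1 at -0.53 (adjusted p = 0.0130), Ckb at -0.39 (adjusted p = 0.0732) and Gamt 101408_at at -0.32 (adjusted p = 0.0939). The Ckmt1 call was lost without untreated wild type array 2 (-0.45, adjusted p = 0.0511) and without treated R6/2 array 3 (-0.43, adjusted p = 0.0539). The Ckb call was lost without untreated wild type array 2 or 3 (-0.57 and -0.50), any treated wild type array (-0.60, -0.61 and -0.49), untreated R6/2 array 2 (-0.54) or treated R6/2 array 1 or 3 (-0.54 each). It was lost too with quantile normalization (-0.50, adjusted p = 0.0592), without the filter on dim probe sets and without the variance trend (adjusted p = 0.114 and 0.0600). The Gamt call was lost without any of 10 arrays, at -0.29 to -0.37, and was kept without treated wild type array 1, untreated R6/2 array 1 or untreated R6/2 array 4. Slc6a8 95625_at was at -0.33 ± 0.11 (SE, adjusted p = 0.0984), Gamt 161644_f_at at 0.24 ± 0.10 (SE, adjusted p = 0.167), Ckmt1 161495_r_at at 0.26 ± 0.18 (SE, adjusted p = 0.414) and Gatm at -0.02 ± 0.10 (SE, adjusted p = 0.926). Without those 2 untreated R6/2 arrays these were -0.33, 0.26, 0.25 and -0.12, in the same order, and none passed.

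Counted by overlap alone, 2 of 7 probe sets were higher and 2 lower in R6/2 without overlap in untreated mice, where 13.9% and 12.3% of all probe sets were. In treated mice 3 of 7 were lower (Ckb, Slc6a8 95625_at and Ckmt1 160565_at) and 0 higher, where 8.17% and 8.63% of all were. For treatment, 2 of 7 were higher and 0 lower in R6/2 mice (4.94% and 5.65% of all), and 1 was higher and 1 lower in wild type mice (11.4% and 10.4% of all). With untreated R6/2 arrays 2 and 3 left out, 2 were higher and 4 lower for genotype in untreated mice (23.5% and 17.4% of all), and 2 higher and 1 lower for treatment in R6/2 mice (8.31% and 9.43% of all). Set against untreated wild type arrays, treated R6/2 arrays were lower without overlap for Ckmt1 160565_at, Slc6a8 95625_at and Gamt 101408_at, higher without overlap for Gamt 161644_f_at, and overlapped for Ckb, Gatm and Ckmt1 161495_r_at, where 12.8% of all probe sets were lower and 14.2% higher.

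Markers of the main brain cell types were lower in R6/2 in part of their genes in untreated mice, where 6.41% of all probe sets passed as lower and 5.49% as higher. In treated mice 0 of 9 oligodendrocyte, 0 of 10 astrocyte and 0 of 14 neuron markers passed for genotype in the limma fit, against 0.792% of all probe sets. Without untreated R6/2 arrays 2 and 3, 3 of 9 oligodendrocyte markers fell in treated mice and 0 of the astrocyte and neuron markers passed. All probe sets then passed at 1.6% in treated and 2.24% in untreated mice. With all arrays the median log2 difference of the oligodendrocyte markers was -0.54 in untreated and -0.51 in treated mice. Averaged over treated and untreated mice, 6 of 9 oligodendrocyte, 4 of 14 neuron and 2 of 10 astrocyte markers were lower in R6/2 and 0 higher. Of all probe sets 4.04% then passed as lower and 2.58% as higher. Without untreated R6/2 arrays 2 and 3 these counts were 6, 5 and 2, where 5.69% of all probe sets passed in either direction. In bulk tissue, fewer cells of a type and less RNA per cell cannot be told apart. The summed signal of the 10 oligodendrocyte marker genes on the array, of 15 listed, was 3202 to 4327.4 in treated R6/2 and 3055.9 to 3904.9 in untreated R6/2 arrays, against 4821.7 to 5658.2 in treated and 4925.1 to 5438.1 in untreated wild type arrays. In untreated mice 4 of the 9 tested oligodendrocyte genes fell in R6/2 and 0 rose, among them the myelin genes Mbp (-0.55 ± 0.16, SE) and Mobp (-0.73 ± 0.19, SE). The count was 3 of 9 without untreated R6/2 arrays 2 and 3, where Mobp passed (-0.92, adjusted p = 0.0357) and Mbp did not (-0.37, adjusted p = 0.112). The 11 astrocyte markers of 14 listed summed to 5679.2 to 6682.4 in treated R6/2 and 5523.7 to 5752.4 in untreated R6/2 arrays, against 6396.4 to 7754.8 in treated and 6561.2 to 7142.9 in untreated wild type arrays, and 4 of 10 tested fell and 0 rose in untreated mice (1 of 10 fell without those arrays). The astrocyte sums of treated R6/2 and treated wild type arrays overlapped. The 14 neuron markers of 16 listed summed to 11572.1 to 12375.7 in treated R6/2 and 10872.3 to 12078.6 in untreated R6/2 arrays, against 12651.3 to 13525.2 in treated and 13671.6 to 14021 in untreated wild type arrays, and 5 of 14 tested fell and 0 rose in untreated mice (3 of 14 fell without those arrays). Signs were mixed for neuron and astrocyte markers. For genotype in untreated mice, 5 neuron markers had a log2 difference above 0 and 9 below, with a median of -0.36. Of the astrocyte markers 4 were above 0 and 6 below, with a median of -0.29. Treated mice had the same counts. Oligodendrocyte markers in untreated mice had 0 above 0 and 9 below. The part of these marker shifts in the differences of Ckb, Gamt and Ckmt1 was not tested.

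**Figure D4:**
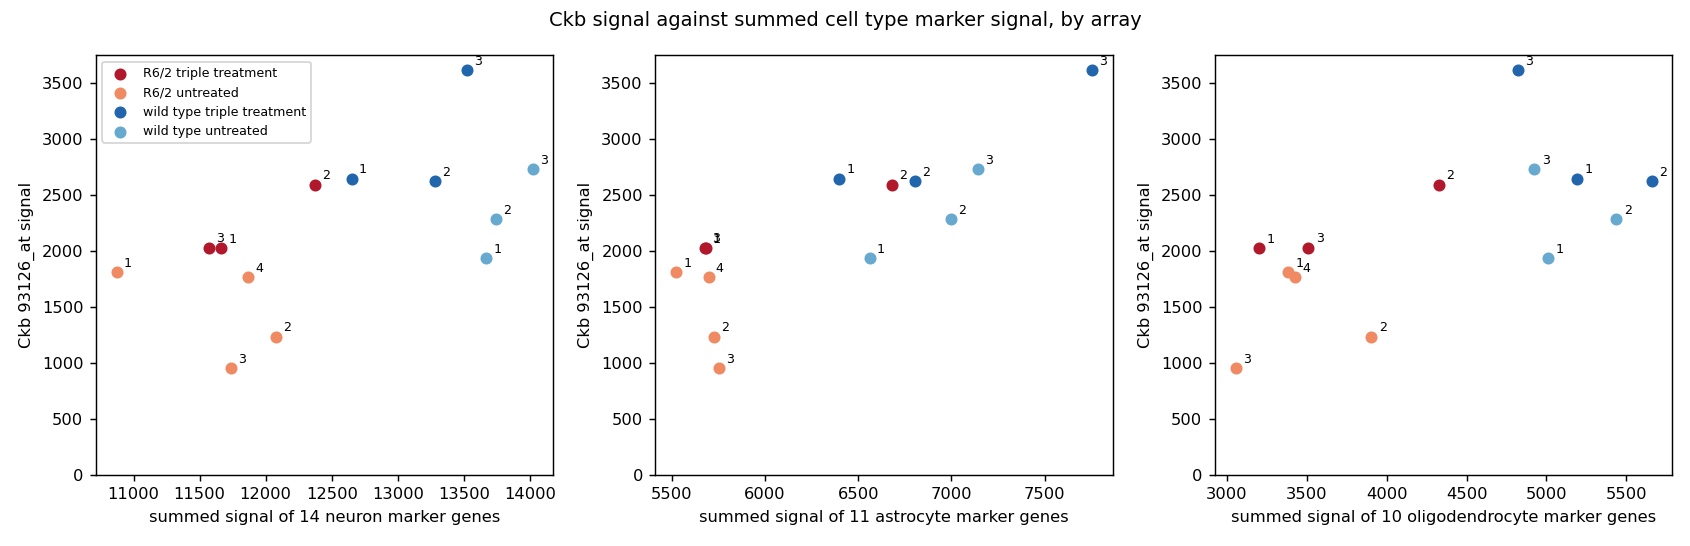
Ckb 93126_at signal (y axis) against the summed signal of neuron, astrocyte and oligodendrocyte marker genes (x axes, which do not start at 0) in each array, coloured by group and numbered. R6/2 arrays lie to the left of wild type arrays for the oligodendrocyte sum (3055.9 to 4327.4 and 4821.7 to 5658.2) and for the neuron sum (10872.3 to 12375.7 and 12651.3 to 14021). For the astrocyte sum they overlap (5523.7 to 6682.4 and 6396.4 to 7754.8).

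Markers of blood and of tissues that could be carried along were read as well. The 4 blood markers on the array, of 9 listed, summed to 947.2 to 2166.8 in treated R6/2 and 928.1 to 1896.4 in untreated R6/2 arrays, against 1012.4 to 1674.2 in treated and 2002.8 to 3552.2 in wild type arrays without treatment. The median log2 difference of the 3 tested blood markers was -1.02 for genotype in untreated mice. It was 0.47 for treatment in R6/2 mice and -0.83 for treatment in wild type mice. Leaving out untreated R6/2 arrays 2 and 3 gave -0.81 for genotype in untreated mice and 0.17 for treatment in R6/2 mice. The 14 skeletal muscle markers, Ckm among them, summed to 962.8 to 1126.2 in treated R6/2 and 708.6 to 1005.4 in untreated R6/2 arrays, against 1096.4 to 1185.8 in treated and 1001.4 to 1100.2 in untreated wild type arrays. Of the 9 tested, 4 had a log2 difference above 0 and 5 below for genotype in untreated mice. Their median was -0.10, and 0.10 without untreated R6/2 arrays 2 and 3. The part of blood and muscle RNA in the differences of Gamt and Ckb was not tested. Alb, the liver albumin gene, read 5.7 to 19.5 in treated R6/2, 4.7 to 23.4 in untreated R6/2, 5.7 to 17.9 in wild type arrays with treatment and 7.6 to 14.2 in those without. For genotype in untreated mice, where 5.49% of all probe sets were higher and 6.41% lower, 1 of 9 tested skeletal muscle markers fell (Acta1) and 1 of 3 blood markers fell (Alas2), which is near that share for muscle. Of 9 tested microglia markers 1 rose (Ctss), and of 9 endothelium and 3 choroid plexus markers 0 passed in the limma fit. The microglia list as a whole did not rise: 3 markers had a log2 difference above 0 and 6 below. Its median was -0.29, and 0.01 without untreated R6/2 arrays 2 and 3. None of Acta1, Alas2 and Ctss passed without untreated R6/2 arrays 2 and 3. Neuronal Snap25 read 2319.2 or more in every array.

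Genes that feed the pathway or use its product were described by lists, whose counts for genotype in untreated mice stand against the 11.9% of all probe sets that passed (5.49% higher and 6.41% lower). In untreated mice, 0 of 8 tested genes of arginine and ornithine supply passed for genotype, with a median log2 difference of 0.16 (0.04 without untreated R6/2 arrays 2 and 3). Of 13 tested genes of glycine and methyl donor supply, 1 rose and 1 fell: Phgdh, the first enzyme of serine synthesis, at 0.76 ± 0.22 (SE, limma adjusted p = 0.0399), and Slc6a9, the glycine transporter of glia, at -0.45 ± 0.12 (SE, adjusted p = 0.0278). Of 17 tested genes of ATP transfer and use, 2 rose and 3 fell, with a median of 0.14 (0.01 without untreated R6/2 arrays 2 and 3). Those that fell were Atp2b2, a calcium pump of the plasma membrane (-1.65 ± 0.26, SE), Atp1b2, a sodium pump subunit (-1.25 ± 0.34, SE), and Ak1, the cytosolic adenylate kinase that shares the task of phosphate transfer with creatine kinase (-0.89 ± 0.27, SE, adjusted p = 0.0488). Those that rose were Vdac2, a channel of the outer mitochondrial membrane (0.49 ± 0.14, SE), and Ak4, a mitochondrial adenylate kinase, on its brighter probe set (0.44 ± 0.13, SE), the other being at -0.09. Among 7 tested SLC6 transporters other than Slc6a8, Slc6a15, a carrier of neutral amino acids, rose (0.58 ± 0.15, SE), and Slc6a9 fell. Without untreated R6/2 arrays 2 and 3, Atp2b2 still passed (-1.25, adjusted p = 0.0259) and the other 7 named here did not, at adjusted p of 0.0882 to 0.249. No gene of these 4 lists passed in treated mice or for treatment in the limma fit of all arrays. Without untreated R6/2 arrays 2 and 3, 1 of 17 genes of ATP transfer and use fell in R6/2 in treated mice, against 1.6% of all probe sets.

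Among the genes whose log2 signal ran most alike, Ckb had the closest partner. Across the 13 arrays, which share group and array effects, Dnm1, the dynamin of synaptic vesicle recycling, had a Pearson r of 0.998 with Ckb on probe set 103030_at, and 0.997 once each group's mean was subtracted. Dnm1 103030_at read 2628.9 to 2968 in treated R6/2, 1868.3 to 2498.3 in untreated R6/2, 2995.1 to 3465.7 in wild type arrays with treatment and 2539.2 to 3014.1 in those without, a narrower range than that of Ckb. The next 3 for Ckb were Dmtn (r = 0.950), Abcb9 (r = 0.950) and Adgrb1 (r = 0.945). For Ckmt1 160565_at they were Mal (r = 0.924), Klf10 (r = 0.914), Nefm (r = 0.907) and Myh7 (r = 0.903), and for Gatm they were Gja1 (r = 0.894), Ube2g1 (r = 0.885), Cmip (r = 0.867) and Acsl4 (r = 0.852). For Slc6a8 95625_at they were Nsdhl (r = 0.869), Pdpk1 (r = 0.847), Asap1 (r = 0.833) and Atg16l1 (r = 0.821), and for Gamt 161644_f_at Ppl (r = 0.935), Ddx27 (r = 0.913), Calm2 (r = 0.898) and Rag1 (r = 0.897). These are descriptions of 13 arrays, picked as the highest of all kept probe sets with 1 gene. Between the members themselves, r over the 13 arrays was 0.66 for Ckb and Gamt 101408_at, 0.60 for Ckmt1 160565_at and Slc6a8 95625_at, and -0.56 for the 2 Gamt probe sets. With group means subtracted these were 0.37, 0.52 and 0.28, and that of Ckb and Gatm was -0.77.

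**Figure D5:**
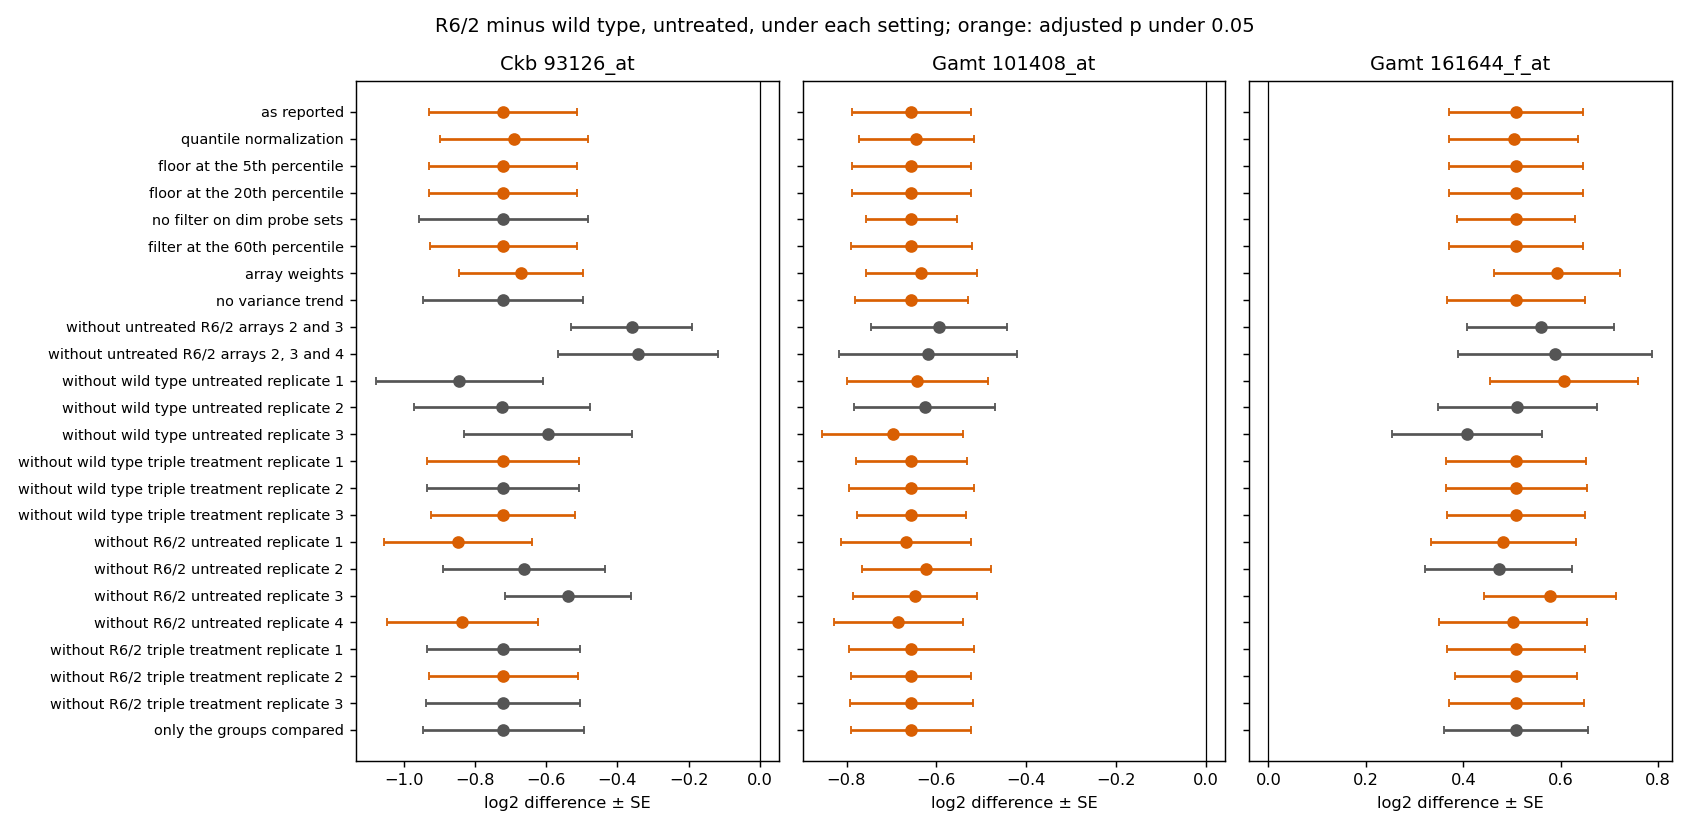
Log2 difference of R6/2 minus wild type in untreated mice ± SE (x axis) for the 3 probe sets that passed, as reported and under each of 23 alternative settings (rows); orange marks an adjusted p under 0.05. The sign stays the same in every row, and Ckb lies nearest to 0 without untreated R6/2 arrays 2 and 3 (-0.36) or 2, 3 and 4 (-0.34).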

How the data were processed

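The authors deposited 1 table of linear signal intensities for 13 Affymetrix MG-U74Av2 arrays, scaled to a common trimmed mean. The software that made these intensities is not given in the sources used here. Control probe sets (66) were left out. Intensities below 3.1, the 10th percentile, were set to 3.1, log2 was taken, and the 7453 of 12422 probe sets at or above the 40th percentile of mean log2 (a signal of 24.9) were kept. No further normalization was applied, since array medians lay within 6.73% of their mean. The platform annotation named 1 gene for 10833 probe sets, several for 396 and none for 1193. A mean per group was fitted over all 13 arrays with limma 3.58.1 in R 4.3.3, with a variance trend, and p-values were adjusted by Benjamini-Hochberg over the kept probe sets. The fit was also run on simulated data with independent noise of equal spread in all arrays. That run does not test the fit under the unevenness of these arrays. Arrays give no read depth, and their number limits the precision. Array numbers follow the order of deposit within a group and pair nothing.

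Member genes and gene lists were chosen with earlier results of these data known. All member probe sets are named. Of each other list the kept members past the threshold are named (each gene by its brightest kept probe set), and beside each member the 4 kept probe sets of highest Pearson r. Alternatives changed the normalization, floor, filter, variance trend, array weights, groups fitted and arrays used.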

Additional observations from a re-analysis of the deposited data

How the results depend on the processing

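Of 1099 values of single member probe sets under alternative settings, 1047 kept their side of the threshold, 49 were no longer past it, 3 came past it and none of the called ones changed sign. With array weights Ckmt1 160565_at passed for genotype in treated mice (-0.58, adjusted p = 0.0296), Gamt 161644_f_at for treatment in wild type mice (0.54, adjusted p = 0.0421) and for the averaged genotype effect (0.31, adjusted p = 0.0342). In untreated mice, 3 member probe sets passed for genotype, but 0 without untreated R6/2 arrays 2 and 3, 0 without arrays 2, 3 and 4 (an alternative chosen after seeing the data), 1 when the groups compared were fitted alone, and 0 to 3 without single arrays. With array weights 1 passed for genotype in treated mice and 1 for treatment in wild type mice. For the averaged genotype effect 1 passed without untreated R6/2 arrays 2 and 3, 1 without 2, 3 and 4, and 0 to 3 without single arrays.

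Over all probe sets, the 887 calls for genotype in untreated mice became 512 without the filter, 253 with the groups compared fitted alone, 167 without untreated R6/2 arrays 2 and 3, 82 without 2, 3 and 4, and 156 to 1301 without single arrays. The 59 calls in treated mice became 208 with array weights, 119 and 115 without those 2 sets of arrays, and 20 to 97 without single arrays. The 0 calls for treatment in R6/2 mice became 1 without the filter, 1 and 2 without those arrays, and 0 to 116 without single arrays. The 0 in wild type mice became 2 without the filter, 120 with array weights, 1 without the trend, 8 and 7 without those arrays, and 0 to 6 without single arrays. For the interaction the count was 1 without arrays 2, 3 and 4. The 493 averaged genotype calls became 932 with array weights, 240 without arrays 2, 3 and 4, and 263 to 705 without single arrays. The averaged treatment count of 0 became 17 with array weights, 1 without arrays 2, 3 and 4, and 0 to 43 without single arrays. The cause was not tested. No paired analysis was possible because the titles give no replicate numbers shared between groups.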

Other observations

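Ckm, the muscle creatine kinase, had 1 of its 2 probe sets above the filter. Probe set 160175_at read 13.6 to 38.6 in treated R6/2, 22 to 50.3 in untreated R6/2, 23 to 39 in wild type arrays with treatment and 17.4 to 24.5 in those without. Its log2 difference of R6/2 over wild type in untreated mice was 0.73 ± 0.35 (SE, limma adjusted p = 0.177), opposite in sign to that of Ckb, and the groups overlapped. In treated mice it was -0.40 ± 0.38 (SE, adjusted p = 0.880), where Ckb was at -0.41. Averaged over treated and untreated mice it was 0.16 ± 0.26 (SE, adjusted p = 0.741). The other probe set, 161569_f_at, read 1.6 to 6.1 on all arrays.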
